A study of Homo sapiens with 4 samples.

Results

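Krüppel-like factors (KLF proteins) are transcription factors that bind GC-rich and CACCC-type promoter elements through zinc fingers at the end of the protein. N6-methyladenosine (m6A) peaks were described on the mRNAs of 10 of them, KLF3, KLF4, KLF5, KLF6, KLF7, KLF9, KLF10, KLF11, KLF13 and KLF16. These genes were named in advance of this description with earlier results on these peak lists in view, and their peaks were found by matching the RefSeq transcript of each listed peak to a gene symbol. They are 10 of 11250 genes with a peak in either library, a number in which each of 99 transcripts without a gene symbol counts as a gene of its own, and carried 20 of 23623 listed peaks in the library called Ctrl and 20 of 23134 in the library called Cas.

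The samples were HEK293T cells, a standard line derived from human embryonic kidney and much used for transfection. Fragmented polyadenylated RNA was pulled down with an anti-m6A antibody (MeRIP-seq), beside an input kept for each group. Per the labels, cells of all samples received dCas13b-M14 and a guide RNA, where dCas13b is a form of the RNA-guided nuclease Cas13b without cutting activity and M14 is not explained. The series directed methylation to sites on the YTHDF2, SPEN and GAPDH mRNAs, so that no KLF transcript was a target, and the labels do not say how the treatment of Ctrl and Cas differed. There were 4 libraries, 1 per group and kind, and the peak lists of the 2 immunoprecipitations were used. With no replicates there is no error between samples and no test between groups, so every difference is one between these libraries. The lists give positions without read counts or scores. Depth is therefore unknown, and a missing peak may reflect little RNA as well as little methylation. Of 6 genes taken as marks of the kidney, neuronal and mesenchymal traits of this line, all had a peak, PAX2 and LHX1 in Ctrl only. PAX2 and LHX1 had 1 peak each, narrower than the Ctrl median of 194 nt. Of 15 markers of blood, liver, muscle, fibroblast, endothelial and epithelial cells COL1A1 and CDH1 had peaks in both libraries. The peaks of COL1A1 (2 in Ctrl, 3 in Cas) did not overlap between libraries, while those of CDH1 did. The share of all annotated genes that had a peak was not computed, so these counts are no test of cell identity.

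KLF factors fall into groups by the cofactors they bind. KLF3 recruits the corepressor CtBP, KLF4, KLF5, KLF6 and KLF7 are mostly known as activators, and KLF9, KLF10, KLF11, KLF13 and KLF16 bind the Sin3 corepressor. The mark m6A is placed on nascent mRNA by the METTL3-METTL14 complex, mainly within the sequence context DRACH (D is A, G or T, R is A or G, H is A, C or T), often in long exons and near stop codons. It is read by YTH proteins, some of which speed the decay of the mRNA.

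Short sequences are shown for 8 of the genes to let a reader see the m6A context that peaks of both libraries have in common. For each gene the match to GGAC followed by A, C or T that lay farthest from the ends of a stretch covered in both libraries was taken, and the capitals mark it. The sequences come from GENCODE release 29 transcripts on GRCh38, read 5′ to 3′ on the RNA strand, with 10 bases on either side.
KLF3: tccagtgcccGGACTgtgaccgcag
KLF5: cagcagcaatGGACActcttaatgt
KLF6: gtcctccagaGGACActctcatcag
KLF7: cttcaggcggGGACCcattgcctcg
KLF9: ggaacggtgcGGACCggccggagca
KLF11: gcagcttctgGGACActttgaaact
KLF13: attgtgacttGGACCttttcaggag
KLF16: gcctgagactGGACCtgggtctgcc

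The KLF3 stretch (chr4:38697184-38697208, plus strand) lies in the coding sequence, inside the part that encodes the zinc fingers. The KLF5 stretch (chr13:73062336-73062360, plus strand), the KLF6 stretch (chr10:3782042-3782066, minus strand) and the KLF11 stretch (chr2:10047952-10047976, plus strand) are coding sequence before the fingers. Those of KLF7 (chr2:207081116-207081140, minus strand), KLF13 (chr15:31373367-31373391, plus strand) and KLF16 (chr19:1854292-1854316, minus strand) lie in the 3' UTR, and that of KLF9 (chr9:70413913-70413937, minus strand) in the 5' UTR. KLF4 had no such match in its shared stretch, and no sequence is shown for KLF10. These are matches in the letters, not measured sites. The transcripts in the lists are RefSeq records without a version, while the sequences and regions come from their GENCODE partners. At KLF13 the listed record is a numbered copy whose place in the genome is not given, so the coordinates shown are those of the partner alone. Only for KLF3 did the partner begin within 10 nt of the start of the RefSeq gene. For the others the numbering was not checked, and the size of a difference is not known: at KLF5, KLF7, KLF10, KLF11 and KLF16 the RefSeq gene starts 695 nt or more upstream of the partner, where other transcripts of the gene may begin. The matches shown lay between 43 nt (KLF11) and 161 nt (KLF7) from the nearer end of their shared stretch, with those of KLF9, KLF11, KLF13 and KLF16 at 75 nt or less, so a larger difference would place them outside it.

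All 10 genes had listed peaks in both libraries, which carries no weight, since they were chosen with such results in view. Of all genes with a peak 85.2% were listed in both libraries, 10.0% were listed for Ctrl alone and 4.79% for Cas alone. The number of peaks was the same in both libraries at 7 of the genes, higher in Ctrl at KLF6 and KLF16 and higher in Cas at KLF9. Among all 9584 genes with peaks in both, 55.8% had the same number, 20.0% more in Ctrl and 24.2% more in Cas.

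**Figure D1:**
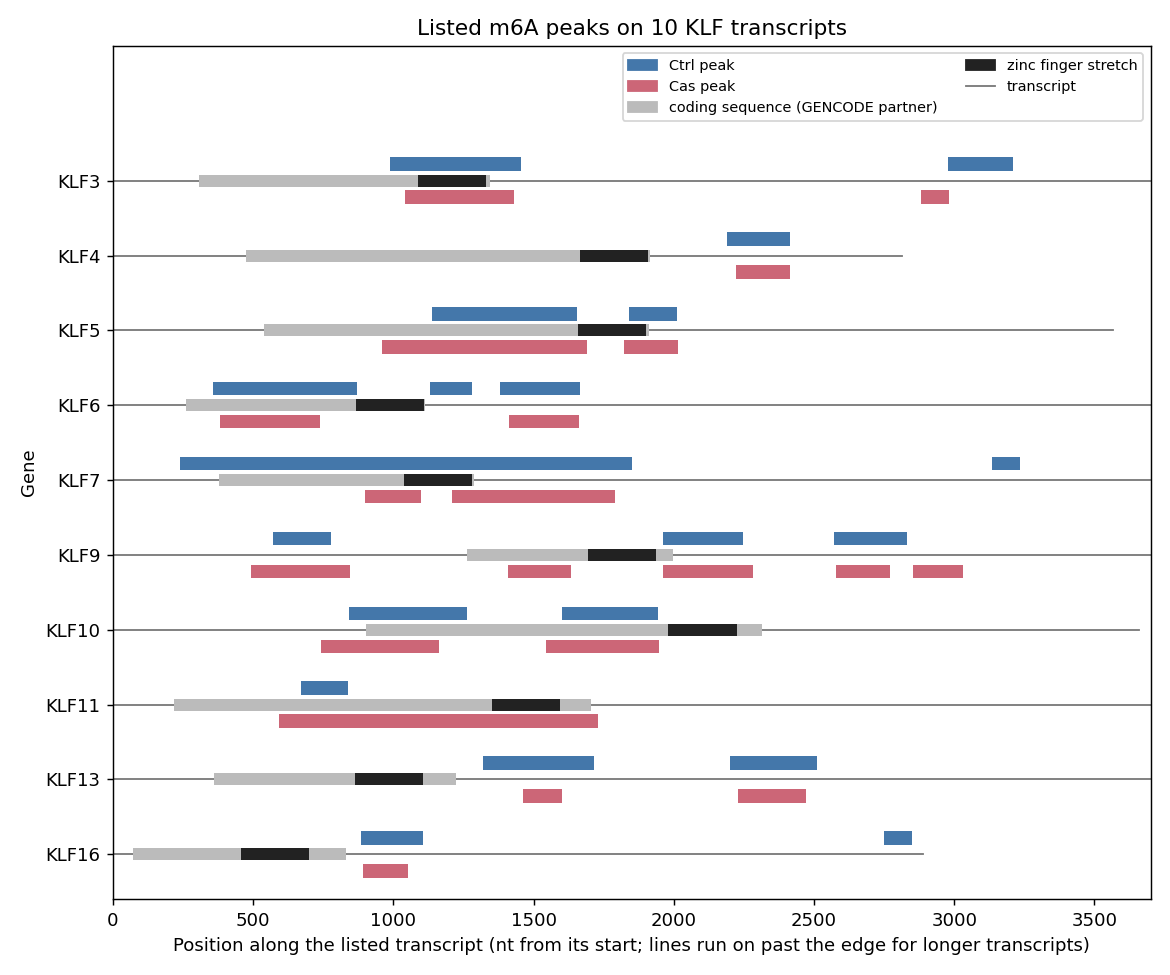
Listed m6A peaks along the 10 transcripts, with the position in nt from the transcript start on the horizontal axis and 1 row per gene. Blue bars above each line are Ctrl peaks, red bars below are Cas peaks, grey is the coding sequence and black the zinc finger stretch of the GENCODE partner; most bars of one colour have a partner of the other, and the Ctrl bar at KLF7 and the Cas bar at KLF11 are the longest.

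KLF3, a broadly expressed repressor, had 2 peaks in each library. The first spanned positions 987 to 1455 of NM_016531 in Ctrl and 1043 to 1430 in Cas, and the Cas peak lay wholly inside the Ctrl peak. Both covered the whole zinc finger stretch and the stop codon. The second peaks lay at 2978 to 3209 in Ctrl and 2880 to 2980 in Cas, deep in the 3' UTR, and met over only 3 bases. They count as shared by the rule of at least 1 base and as separate when each must cover 50% of the other.

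KLF4, one of the factors used to reprogram cells to pluripotency, had a single peak in each library. It lay at 2191 to 2414 of NM_001314052 in Ctrl and at 2223 to 2413 in Cas. The ends on the right differed by 1 base. By the partner both peaks lay in the 3' UTR, and their centres stayed there with the numbering moved by up to 130 nt to either side. The partner stands for 2 RefSeq transcripts, as does that of KLF10, and that of KLF6 for 3, so that which of them its numbering follows is not known. At KLF4 the RefSeq gene starts 123 nt upstream of the partner, and the partner's intron between exons 3 and 4 has 102 nt. A listed transcript that held both of these stretches would differ in numbering by more than 130 nt.

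KLF5, a factor of proliferating epithelium, had 2 peaks in each library. The coding peak spanned 1137 to 1654 of NM_001730 in Ctrl and lay wholly inside the Cas peak at 961 to 1690. The second peak was centred on the stop codon region, at 1839 to 2009 in Ctrl and 1821 to 2014 in Cas. The centres of this pair lay 16 nt and 9 nt past the stop codon, and in all the peaks of KLF5 took up 689 bases in Ctrl and 924 in Cas.

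KLF6, an immediate early factor, had 3 peaks in Ctrl and 2 in Cas. The coding peak lay at 355 to 871 of NM_001300 in Ctrl and at 382 to 737 in Cas. The 3' UTR peak lay at 1381 to 1663 in Ctrl and at 1414 to 1661 in Cas. Between them Ctrl alone had a peak at 1131 to 1280, just past the stop codon of the partner. Both ends of this Ctrl peak fell on a 10-base grid, a feature of 27.2% of all Ctrl peaks, and by the partner it held no DRACH.

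KLF7, a factor of neuronal growth, had the widest peak of the group. In Ctrl a peak of 1611 nt ran from 240 to 1850 of NM_003709, and only 1 of the 23623 Ctrl peaks was wider. By the partner it ran from the 5' UTR across the coding sequence into the 3' UTR. In Cas the same stretch held separate peaks at 900 to 1099 and at 1208 to 1791. A further Ctrl peak at 3133 to 3232 had no Cas partner and had the lowest width in either list, 100 nt. Each library listed 2 peaks, yet these took up 1711 bases in Ctrl and 784 in Cas.

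KLF9, which responds to glucocorticoid and thyroid hormone, had 3 peaks in Ctrl and 5 in Cas. All 3 Ctrl peaks of NM_001206 had a Cas partner, at 571 to 775 against 491 to 846, at 1962 to 2246 against 1962 to 2281 and at 2572 to 2830 against 2579 to 2769. The second pair began at the same base. Cas alone had peaks at 1408 to 1634 in the coding sequence and at 2854 to 3030 in the 3' UTR. They were 227 and 177 nt wide, neither on the 10-base grid. With the partners numbered as they are, KLF9 was the only one of the 10 genes with peaks centred in the 5' UTR, in a first exon of 1766 nt.

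KLF10, first described as a gene induced early by TGF-beta, had 2 peaks in each library, all centred in the coding sequence of the partner. The first lay at 841 to 1260 of NM_001032282 in Ctrl and 741 to 1160 in Cas, both 420 nt wide and both on the 10-base grid, with an offset of 100 nt. The second lay at 1600 to 1944 in Ctrl and 1546 to 1948 in Cas. Both second peaks ended before the zinc finger stretch, which began at 1981 by the partner. The further position that the files give inside each peak, whose meaning is not stated, was 1714 in both.

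KLF11, a relative of KLF10 that TGF-beta also induces, had 1 peak per library, and these differed more in width than any other overlapping pair with 1 partner each in the group. The Ctrl peak of 168 nt lay at 670 to 837 of NM_001177718. The Cas peak of 1139 nt ran from 591 to 1729. By the partner, whose numbering was not checked, it took in the rest of the coding sequence with the zinc fingers and the stop codon. That coding sequence ends at 1704, so a small difference in numbering would leave the stop codon outside the peak. Of the 23134 Cas peaks 15 were wider. The positions given inside the peaks were close, at 740 in Ctrl and 724 in Cas, near the left end of the Cas peak.

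KLF13, known from the regulation of a chemokine gene in T cells, had 2 peaks in each library, all in the 3' UTR. They lay at 1318 to 1715 and 2201 to 2508 in Ctrl, and at 1463 to 1601 and 2228 to 2472 in Cas. Both Cas peaks lay inside Ctrl peaks, and covered 384 bases against 706. The lists name this transcript NM_015995_2, a numbered copy, and neither the labels nor the files say where in the genome that copy lies.

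KLF16, a small Sin3-binding repressor, had 2 peaks in Ctrl and 1 in Cas. The shared peak lay at 885 to 1105 of NM_031918 in Ctrl and at 893 to 1052 in Cas, just past the stop codon of the partner. By the partner the second Ctrl peak at 2751 to 2850 lay near the end of the 3' UTR. It was 100 nt wide with both ends on the 10-base grid, as narrow as any peak listed.

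**Figure D2:**
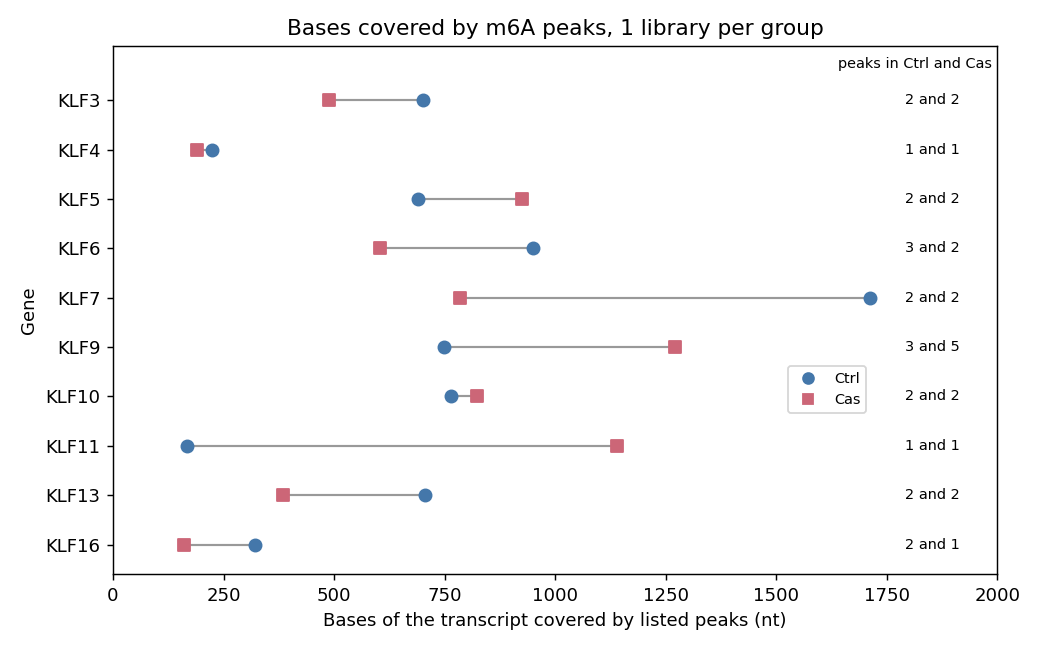
Bases of each transcript covered by listed peaks, in nt on the horizontal axis, with 1 row per gene, circles for Ctrl and squares for Cas, 1 library each and therefore no error bars. KLF7 (1711 and 784) and KLF11 (168 and 1139) lie farthest apart, in opposite directions.

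Over the group, a Cas peak met 17 of the 20 Ctrl peaks (85%, Wilson 95% interval 64.0 to 94.8), where 75.8% of the whole Ctrl list was met. A Ctrl peak met 18 of the 20 Cas peaks (90%, 69.9 to 97.2), where 78.0% of the whole Cas list was met. Both intervals hold the share over the whole list; they cover the counting of peaks only, and peaks of a transcript share their source. With a reciprocal overlap of 50% the share was 65% in each library, against 62.9% of the Ctrl list and 64.2% of the Cas list. The 3 Ctrl peaks without a partner were those at KLF6, KLF7 and KLF16 described above, and the 2 Cas peaks were both at KLF9.

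The peaks of the group were wide. Their median was 271 nt in Ctrl and 246.5 nt in Cas, against 194 and 188 nt over all peaks, and 15 of the Ctrl and 16 of the Cas peaks were wider than the median of their list. At 500 nt or more there were 3 in each library, or 15%, where 3.07% of all Ctrl and 3.23% of all Cas peaks reached that width. These were at KLF5, KLF6 and KLF7 in Ctrl and at KLF5, KLF7 and KLF11 in Cas.

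The bases covered summed to 6984 in Ctrl and 6769 in Cas. The ratio of Cas to Ctrl ran from 0.458 at KLF7 to 6.78 at KLF11, with KLF9 (1.70), KLF5 (1.34) and KLF10 (1.08) above 1 and the other 5 between 0.498 and 0.853. The median ratio was 0.775 (interquartile range 0.567 to 1.27), against 1 over all genes with peaks in both (interquartile range 0.754 to 1.27). The range of the group holds 1. The bases covered in both libraries, as a percentage of those covered in either, ranged from 14.7% at KLF11 to 85.3% at KLF4. The median of the group was 52.6% and that of all genes 57.8% (interquartile range 40.3 to 77.2). KLF11 stood lowest, at or above only 4.29% of all genes. Where peaks overlapped, the positions given inside them differed by a median of 52 nt for Ctrl and 59 nt for Cas peaks of the group, against 20 and 21 nt over all peaks. These medians rest on 17 and 18 peaks of the group. Its peaks were also wider, and neither a spread nor a comparison at like width was computed.

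**Figure D3:**
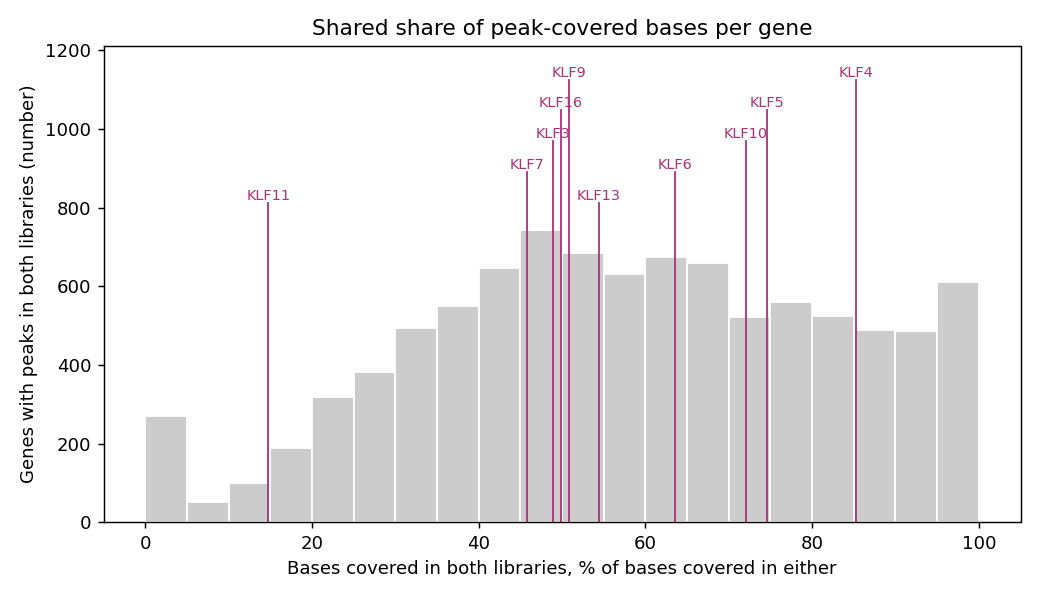
Number of genes, on the vertical axis, by the percentage of peak-covered bases that both libraries share, on the horizontal axis, over the 9584 genes with peaks in both, with the 10 KLF genes as labelled lines (the height of a line has no meaning). KLF11 lies far to the left at 14.7%, KLF4 to the right at 85.3%, and the others between 45.8% and 74.6%.

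Regions were read on the GENCODE partners by the centre of each peak. On KLF3, whose numbering was checked, the first peak of each library was centred within 200 nt of the stop codon and the second in the 3' UTR. Over all 10 genes, 5 Ctrl and 4 Cas peaks (25% and 20%) were centred within that window, against 24.1% and 23.1% of all peaks on the 1860 coding transcripts that passed the same check. The 3' UTR beyond the window held 8 peaks of each library, or 40% (21.9 to 61.3), against 24.6% and 23.9% of all such peaks. The coding sequence before the window held 6 Ctrl and 7 Cas peaks, or 30% (14.5 to 51.9) and 35% (18.1 to 56.7), against 48.0% and 50.3%. The check compared only the start of the partner with that of the RefSeq gene, not its exons or length. Of the 3891 Ctrl and 3817 Cas peaks on checked transcripts, 3705 and 3624 lay wholly within the partner. A centre past the partner's end was counted as 3' UTR. With the window of 200 nt the intervals of the group hold the overall shares of all these classes. With no window, 3 of the 4 intervals for coding sequence and 3' UTR do not. These cases are not separate, since the shares of a library nearly complement each other and most peaks overlap between libraries. The intervals cover the counting of peaks only, and peaks of a transcript share their source, so they are no test of the group. The coding sequence then held 35% (18.1 to 56.7) in Ctrl, where the share over all such peaks was 61.0%, and 40% (21.9 to 61.3) in Cas, where it was 62.6%. The 3' UTR held 60% (38.7 to 78.1) and 55% (34.2 to 74.2), against 35.7% and 34.7%. With the group's positions moved up by 130 nt the window held 3 Ctrl peaks in place of 5, and moved down by as much it held 5. The shares with no window were not recomputed with the numbering moved. By the partners a Ctrl centre each at KLF5, KLF6 and KLF9 lay 16, 94 and 110 nt past the stop codon. Cas centres at KLF5 and KLF9 lay 9 and 127 nt past it. Moved down by 130 nt, all of these would count as coding sequence, while the first Cas peak of KLF10 would pass to the 5' UTR.

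Exons were read from the partners too. By these, 7 of the genes have an internal exon and 3, KLF9, KLF13 and KLF16, have only 2 exons. In 5 of the 7 the longest internal exon held the centre of a coding peak in both libraries. These were exon 2 of KLF5 (874 nt), KLF6 (574 nt) and KLF7 (631 nt) and exon 3 of KLF10 (913 nt) and KLF11 (946 nt). KLF3 (exon 3, 487 nt) and KLF4 (exon 3, 973 nt) had none there. With the numbering moved by 130 nt the count was 5 in one direction and 4 in the other, where KLF7 was lost. Over all 7957 coding transcripts with an internal exon and peaks in both libraries the same held for 25.7%, and for 74.6% of the 1530 whose longest internal exon had 500 nt or more, a length chosen after the values were seen. Of the KLF genes 6 had an internal exon of that length, and the 5 named are among them, so their share is read against the latter value and is close to it. Most of the remaining peaks were centred in the last exon, which held the 3' UTR.

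The zinc fingers are what the family has in common. In each of the 10 proteins translated from the partners a pattern search found 3 fingers, encoded by a stretch of 243 nt that ended between 3 nt (KLF4, KLF6 and KLF7) and 129 nt (KLF16) before the stop codon. Of the Ctrl peaks 4 touched this stretch, 5 ended before it and 11 began after it. Of the Cas peaks 6 touched it, 5 ended before it and 9 began after it. It was covered whole at KLF3 in both libraries, at KLF7 in Ctrl and at KLF11 in Cas. At KLF7 Cas peaks covered 55.6% of it, and at KLF5 the cover was 25.9% in Ctrl and 46.5% in Cas. By the partners, no peak of either library touched it at KLF4, KLF9, KLF10, KLF13 and KLF16, and at KLF6 only 7 nt were touched, in Ctrl. Of the group only KLF3 had checked numbering, so touch or its absence at the other genes is not settled. At KLF9 the stretch ended at 1936 and the next peak of each library began at 1962. With positions moved up by 130 nt, 5 Ctrl and 7 Cas peaks touched the stretch, and moved down by as much, 5 and 5. The finger sequences of related KLF genes resemble each other, and the sources used here do not say how reads that match several genes were counted.

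Motifs were searched on the RNA strand only. DRACH was in 19 of the 20 Ctrl and all 20 Cas peaks, against 97.4% and 97.6% of the 3705 Ctrl and 3624 Cas peaks that lay wholly within a checked transcript. GGAC was in 13 peaks of each library (65%, 43.3 to 81.9), against 64.0% and 60.9%. GGACT, which is a case of both GGAC and DRACH, was in 7 Ctrl peaks (35%, 18.1 to 56.7) and 4 Cas peaks (20%, 8.07 to 41.6), against 1076 of those Ctrl and 982 of those Cas peaks (27.1%). The group's peaks were wider, so each held more letters. Per kb of peak, GGAC occurred 4.58 times in Ctrl and 4.14 times in Cas, against 5.48 and 5.22, and GGACT 1.43 and 0.739 times, against 1.61 and 1.48. Within 50 nt of the peak centre GGACT was found in 1 peak of each library (5%), against 16.1% and 15.3%. GGAC was found there in 30% of Ctrl and 45% of Cas peaks, against 43.8% and 42.4%. DRACH was found there in 85% of the peaks of each library, against 92.3% and 92.4%. No intervals were computed for these shares near the centre, and of the group only KLF3 had checked numbering. The wide Ctrl peak of KLF7 alone held 4 of the 10 GGACT in the Ctrl peaks. On the 10 transcripts DRACH occurred 23.5 times per kb inside peaks of either library and 17.3 times per kb outside, and GGAC 4.32 and 3.26 times. GGACT occurred 11 times in the 9036 nt inside and 42 times in the 38065 nt outside. These densities do not account for base composition or region.

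Other members of the family and genes that act with it were counted from fixed lists. Of 7 other KLF genes KLF12 (2 peaks in Ctrl, 4 in Cas) and KLF15 (2 and 1) had peaks in both libraries, and KLF1, KLF2, KLF8, KLF14 and KLF17 had none listed. Of 9 SP genes, the relatives that share the zinc finger type, SP1 (3 and 3), SP2 (2 and 2), SP3 (2 and 3) and SP4 (3 and 4) had peaks in both, SP9 had 1 in Ctrl only, and SP5, SP6, SP7 and SP8 had none listed. The bases covered in Ctrl and Cas differed in either direction, with 559 and 1345 at KLF12, 361 and 899 at SP4, 384 and 219 at KLF15 and 739 and 581 at SP2.

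The counts that follow are description only. Of all genes with a peak 85.2% were listed in both libraries, and the share of all annotated genes that had a peak was not computed. All 12 corepressors and coactivators in the list had peaks, 11 of them in both libraries. The acetyltransferase CREBBP had 7 in each and the corepressor NCOR1 6 in each. The acetyltransferase KAT2B had 2 in Ctrl and none in Cas. Of 6 ubiquitin ligases listed for their links to KLF proteins or the TGF-beta pathway 5 had peaks in both, led by ITCH (4 and 4) and SMURF2 (3 and 3), with SMURF1 at 4 in Ctrl and none in Cas. All 7 TGF-beta pathway genes had peaks in both, led by the signal transducer SMAD3 (5 and 6) and the receptor TGFBR1 (6 and 3). Of 9 target and cell cycle genes 8 had peaks in both and CDKN1C none listed. The cyclin CCND1 had 3 in each, and CDKN1A, an inhibitor of cyclin-dependent kinases, had 1 in Ctrl and 4 in Cas. Of 4 genes listed for their links to pluripotency LIN28B (5 and 5) and SOX2 (2 and 3) had peaks in both, and POU5F1 and NANOG had none listed.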

How the data were processed

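The authors deposited, for each immunoprecipitation, a list of peaks with positions along RefSeq transcripts counted from 1. Per the submitters' processing notes FastQC, fastp, HISAT2, SAMtools, edgeR and HOMER were used on GRCh38; the sources used here do not give their roles, the peak caller, its threshold or how the input was used, and edgeR was not run. The inputs were not analysed here. Gene symbols came from RefSeq's GRCh38.p14 annotation, which matched all but 99 of 11254, and regions and motifs were read on GENCODE 29 partners (Python 3.11.15, Biopython 1.88). Peaks on the same transcript that overlap by at least 1 base counted as shared. Wilson 95% intervals came from SciPy 1.17.1. Overlap code was checked on simulated peaks, and region code at a few fixed positions of a made-up coding sequence. All 10 genes are named with every peak, as are all other KLF and SP genes; of the other lists, markers apart, members with peaks in 1 library and the 2 with most peaks. Members and lists were chosen with earlier results of these data known, and the restriction to checked numbering follows such a result.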

Additional observations from a re-analysis of the deposited data

How the results depend on the processing

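No paired analysis was possible because there was 1 library per group. A percentage was called moved outside its interval and a count beyond 1.5 times. Of the planned values 42 stayed and 34 moved; of those chosen after seeing the data 37 stayed and 7 moved. Leaving out peaks on the 10-base grid or merging peaks within 100 bases moved none beyond that. With only the wider 50% of each list 1 of the 10 genes was in Ctrl only (KLF16) and 1 in Cas only (KLF11), and 3 KLF and SP genes in all were in Cas only. With a reciprocal overlap of 50%, 65% of Cas peaks were shared. On KLF3 the first peak of each library moved from the stop codon window to the coding sequence (0 and 1) when placed by the further position, with a window of 100 nt and with no window. Counting every member in place of KLF3, which adds peaks by construction, gave 1 peak in the 5' UTR in each library, 6 and 7 in the coding sequence, 5 and 4 in the window, 8 and 8 in the 3' UTR, DRACH in 19 and 20, GGAC in 13 and 13 and GGACT in 7 and 4. Within 50 nt of the centre 1 Ctrl peak of KLF3 had GGAC and 1 had GGACT. Over all members a window of 100 nt held 2 Ctrl and 1 Cas peaks, and with no window 0 and 0. With positions moved up by 130 nt it held 3 Ctrl peaks. The 5' UTR held 2 Cas peaks when placed by the further position and 2 with positions moved down by 130 nt. Of peak centres 2 in Ctrl and 1 in Cas lay inside the zinc finger stretch. Where not by construction, the cause was not tested. Depth is unknown, so missing peaks cannot be weighed.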
